A study of Sorghum bicolor with 9 samples.

Results

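Mild drought (DR1) was compared with normal water supply (CK, called the control here) in leaves of Sorghum bicolor, or sorghum, a cereal of dry regions with C4 photosynthesis. The comparison rests on 6 of the 9 libraries of the series, 3 mild drought and 3 control libraries, chosen by their labels. The 3 severe drought libraries were not compared here. They entered the filter on low counts, the scaling and the fit, where they share the estimate of the spread. Total RNA of leaves was sequenced from strand-specific libraries, and reads were counted per gene and per long non-coding RNA (lncRNA), a long transcript not known to encode a protein. Of 44775 entries in the gene table, the 34366 that also stand in the table of mRNA levels are called genes here. Of these, 22080 passed a filter on low counts and were tested. Of 11928 lncRNA transcripts, 4903 passed it. All 6 libraries share species and tissue and differ, by their labels, in water supply. The labels name no cultivar and give neither plant age nor the length or depth of the water shortage. Whether each library came from its own plant is not stated either, so the p-values measure only how far these samples spread, which may be technical.

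A plant that runs short of water makes abscisic acid. The hormone binds receptors of the PYL family, the bound receptors block type 2C protein phosphatases, and the SnRK2 kinases that these phosphatases hold back then activate transcription factors. Among the downstream products are enzymes of proline synthesis, which supply a compatible solute, and dehydrins and other late embryogenesis abundant proteins, which protect proteins and membranes in drying cells. In a C4 leaf, mesophyll cells first fix carbon with phosphoenolpyruvate carboxylase, and bundle sheath cells release it to the Calvin cycle with malic enzyme.

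The libraries differed among themselves more than by water supply. They held 39573043, 33399928 and 41228478 counts over the gene table in control 1 to 3, and 34247661, 41223255 and 30926898 in mild drought 1 to 3. Control 2 and mild drought 2 had the most genes with a count, 29760 and 28676, against 22337 to 25066 in the other compared libraries. They also had the most lncRNA transcripts with a count, 10024 and 8897, against 6084 to 7780. The part of this difference in the results was not tested. Over the 6 libraries, the first principal component of log2 levels carried 44.5% of the variance and set control 3 (78.7) and mild drought 2 (130.5) apart from the other libraries (-64.9 to -41.9). The second, with 19.3%, separated the groups, with controls at 36.0 to 56.1 and mild drought at -71.6 to -25.5. Medians and shares of some lists are therefore also given without control 3 and mild drought 2. Lists printed without such values were not all stable when these libraries were left out.

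Markers of leaf tissue were abundant. Summed levels of the 10 C4 mesophyll markers ranged from 35626 to 44442 CPM in the control and from 25127 to 63081 CPM in mild drought, where CPM is the count scaled by the effective library size. Of 32 pollen and seed markers, 15 had no count in any of the 6 libraries and 30 stayed below 1 CPM, and 3 of 4 root markers also stayed below 1 CPM. The 9 xylem markers, which include secondary wall cellulose synthases, summed to 181, 85.9 and 468 CPM in the controls and to 121, 512 and 117 CPM in mild drought. They were thus high in the same pair of libraries that the first component set apart. The 10 guard cell markers, which include the ion channels KAT1 and SLAC1 of stomata, summed to 109, 114 and 110 CPM in the controls and to 92.4, 41.4 and 85.3 CPM in mild drought. Here the groups did not overlap, none of the 10 was at 0 throughout, and 5 stayed below 1 CPM. KAT1 (SORBI_3004G107500) had 59.4, 41.9 and 71.1 CPM against 44.3, 20.4 and 18.0 CPM, and SLAC1 (SORBI_3006G186500) had 32.6, 47.1 and 20.3 CPM against 36.0, 8.76 and 49.9 CPM, so neither of these genes alone parted the groups. A second gene named KAT1 (SORBI_3004G107550) did, with 9.70, 14.8 and 12.4 CPM against 8.23, 7.74 and 8.92 CPM, without a call (DESeq2 adjusted p = 0.821), and lncRNA transcripts held 68.5% of its count. In such bulk samples, fewer cells of a type and less RNA per cell cannot be told apart. The part of these markers in the results was not tested.

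**Figure D1:**
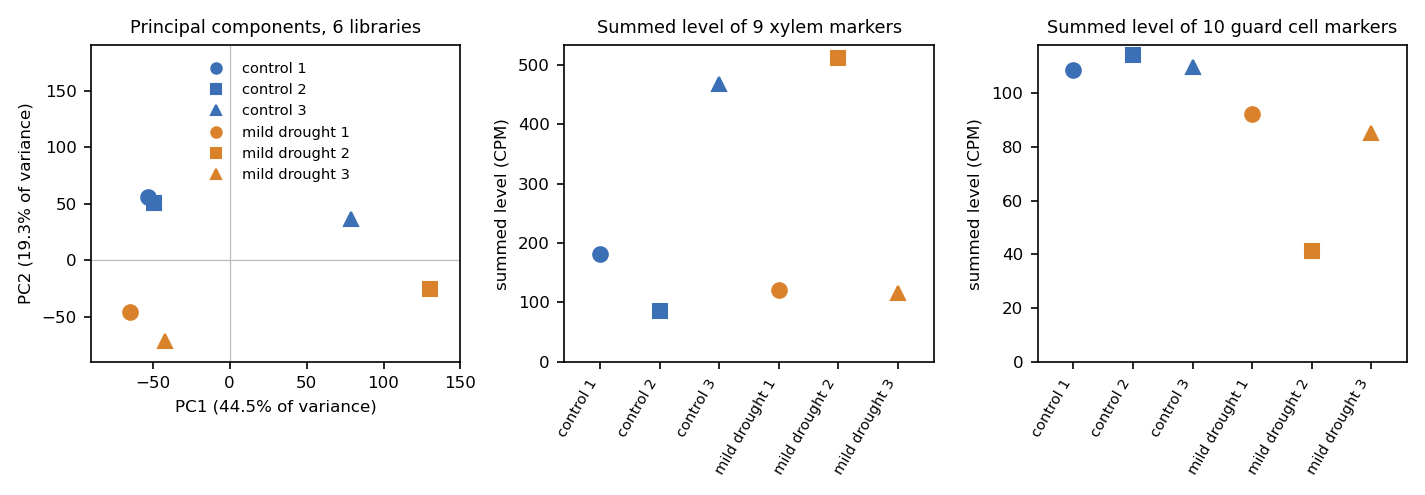
Principal component coordinates of the 6 libraries (left) and the summed level in CPM of the 9 xylem markers (middle) and the 10 guard cell markers (right), with 1 point per library. Control 3 and mild drought 2 lie to the right on the first component and have the highest xylem sums (468 and 512 CPM), while the guard cell sums of the controls (109 to 114 CPM) lie above those of mild drought (41.4 to 92.4 CPM).

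No gene passed the main test. The quasi-likelihood test of edgeR called 0 of 22080 genes (0.0%) at a Benjamini-Hochberg adjusted p under 0.05, and the lowest adjusted p was 0.24. At an unadjusted p under 0.05 there were 1414 genes (6.4%), of which 737 (3.34%) were higher and 677 (3.07%) lower in mild drought. The 3 mild drought libraries lay all above the 3 control libraries in 1369 genes (6.2%) and all below them in 1408 (6.38%). Shares of gene lists over the same 6 libraries are to be read beside these. The median log2 difference over all genes tested was 0.02.

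DESeq2, run as the alternative test on the same counts, called 208 genes (0.942%), of which 121 (0.548%) were higher and 87 (0.394%) lower. The groups did not overlap in 200 of these. The number depended on single libraries. It was 77 without control 1, 78 without control 2, 347 without control 3 and 334 without mild drought 1, and 288 and 140 without mild drought 2 and 3. With both control 3 and mild drought 2 left out it was 315, of which 107 were among the 208. With control 2 and mild drought 2 left out it was 254, of which 63 were among the 208. A core of 41 genes was called each time 1 of the 6 libraries was left out. In what follows, a gene is said to have risen or fallen only where DESeq2 called it, and the words higher and lower describe levels. DESeq2 calls within a gene list, or their absence, are to be read beside the shares of all genes (0.942%, with 0.548% higher and 0.394% lower). Levels are given in CPM for control 1 to 3 and mild drought 1 to 3 in that order, differences as log2 values with their SE from edgeR and positions as deposited. No source used here names the genome build of the positions, which span each gene model from end to end with no division into exons, introns or untranslated regions. Several of the genes belong to families with similar copies, between which reads could have been split, and genes that share a name are therefore uncertain one by one.

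**Figure D2:**
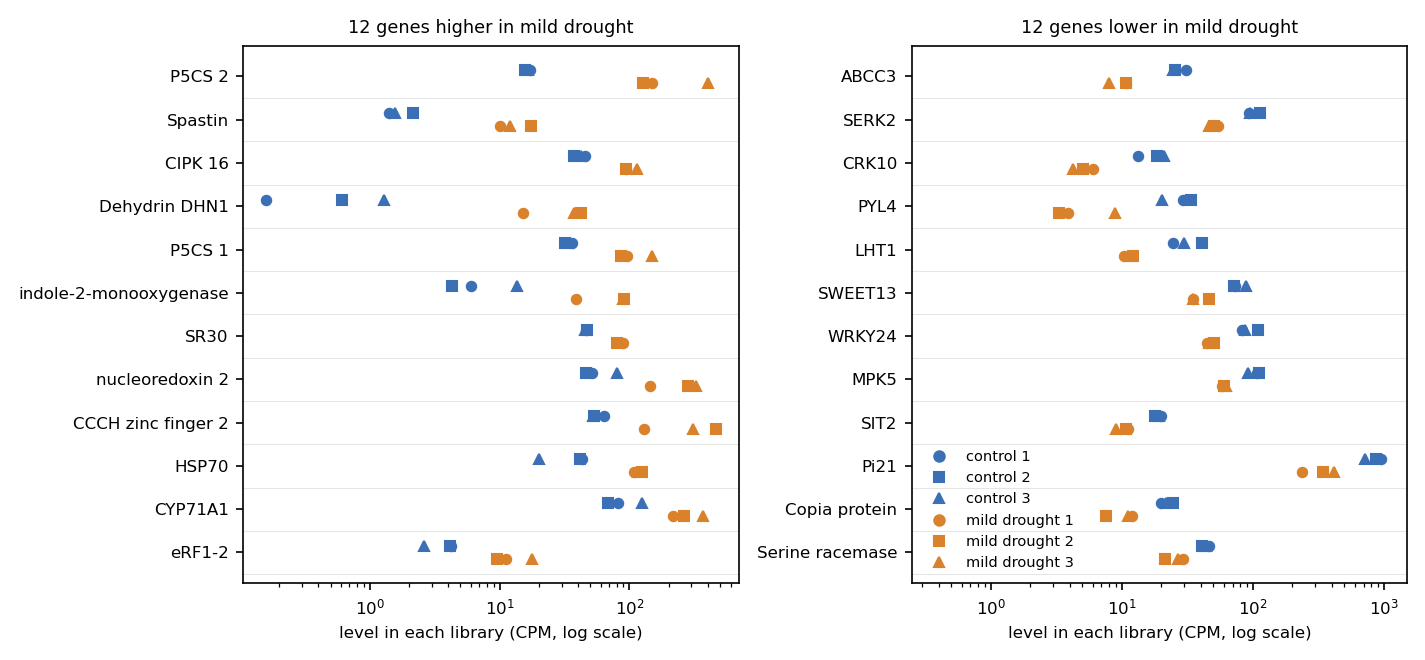
Level of each library in CPM, on a log axis, for the 12 named genes with the smallest edgeR p among those higher (left) and lower (right) in mild drought, with at least 5 CPM on average and groups that do not overlap. Each point is 1 library. Dehydrin DHN1 shows the widest gap (at most 1.28 CPM in the controls, at least 15.3 CPM in mild drought), and PYL4 has the largest difference on the right (log2 -2.38).

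The leading result was proline synthesis. Delta-1-pyrroline-5-carboxylate synthase (P5CS) makes the first committed step from glutamate to proline. P5CS2 (SORBI_3003G356000, chromosome 3, 67427644 to 67434548) had 17.1, 15.8 and 16.7 CPM in the controls and 149, 127 and 400 CPM in mild drought. The controls lay close together, every mild drought library was at least 7 times as high, and mild drought 3 was the highest. The log2 difference was 3.77 ± 0.46 (mean levels 13.6-fold apart, edgeR adjusted p = 0.24, DESeq2 adjusted p = 3.47e-13), and 3.06 without mild drought 3. It was also the gene that most often passed in other fits. It passed in limma voom with quality weights (adjusted p = 0.0291), in limma on log2(FPKM + 1) (adjusted p = 0.0435) and on log2(FPKM + 0.1) (adjusted p = 0.0337), and in edgeR without mild drought 3 (adjusted p = 0.0432).

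P5CS1 (SORBI_3009G160100, chromosome 9, 51779375 to 51800133) rose by DESeq2 as well, from 36.2, 32.1 and 33.9 to 96.0, 85.8 and 148 CPM. Again the groups were well apart and mild drought 3 was the highest (log2 1.69 ± 0.26, edgeR adjusted p = 0.313, DESeq2 adjusted p = 1.49e-05). The mitochondrial enzyme that degrades proline, proline dehydrogenase 2 (SORBI_3001G304700), had 85.2, 108 and 55.4 CPM in the controls and 55.7, 11.4 and 37.5 CPM in mild drought. Its groups overlapped by a small margin, at control 3 and mild drought 1 (log2 -1.25 ± 0.50, edgeR adjusted p = 0.756). The other 4 of the 7 tested genes of proline metabolism overlapped. Over the 7 the median log2 difference was 0.35, and it turned to -0.18 without control 3 and mild drought 2. The last step of synthesis, pyrroline-5-carboxylate reductase (SORBI_3003G424300), differed by a log2 value of 0.55, the transporters by -0.32 and -0.37 and the dehydrogenase that follows proline dehydrogenase (SORBI_3009G212600) by 0.35.

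Dehydrins and other late embryogenesis abundant proteins are hydrophilic proteins that accumulate in drying cells. Dehydrin DHN1 (SORBI_3009G116700, chromosome 9, 45915615 to 45916682) had 0.159, 0.608 and 1.28 CPM in the controls and 15.3, 42.2 and 37.4 CPM in mild drought. It was thus near absent in each control and plainly present in each mild drought library (log2 5.52 ± 0.85, edgeR adjusted p = 0.313, DESeq2 adjusted p = 1.34e-10). Leaving out 1 library at a time gave log2 values from 5.05 without control 1 to 6.40 without control 3. The other 4 tested members of the list did not pass either test. Late embryogenesis abundant protein D-34 (SORBI_3004G142500) was the other member whose groups did not overlap, at mean levels of 0.277 CPM in the control and 1.45 CPM in mild drought. The proteins 31, Lea14-A and At5g17165, named after their entries in other plants, differed by log2 values of 1.91, 0.22 and -0.23. Over the 5 members the median was 1.90, against 0.02 over all genes, and 2.90 without control 3 and mild drought 2. Of 16 genes of the list only these 5 passed the filter, which high counts in drought alone can satisfy. The median thus does not measure the list. The summed level of the 5 overlapped, with 157, 133 and 313 CPM in the controls and 145, 366 and 150 CPM in mild drought.

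Enzymes that make and break down abscisic acid were mixed. The 9-cis-epoxycarotenoid dioxygenases cut a carotenoid to give the precursor of the hormone. Dioxygenase 1 (SORBI_3001G155300, chromosome 1, 12561395 to 12563230) rose by DESeq2 from 1.64, 2.30 and 4.34 to 4.73, 9.91 and 16.0 CPM (log2 1.88 ± 0.51, edgeR adjusted p = 0.6, DESeq2 adjusted p = 0.0445). Control 3 lay just below mild drought 1. NCED1 (SORBI_3004G268500, chromosome 4, 61268235 to 61270278) had 1403, 1861 and 366 CPM in the controls and 1208, 85.6 and 2117 CPM in mild drought. The pair of libraries with high xylem sums held the lowest levels of this gene in both groups, and the log2 difference of -0.09 ± 0.95 was far smaller than that spread. The 5 tested genes for abscisic acid 8'-hydroxylase, which starts the breakdown of the hormone, overlapped, with log2 differences of 0.85 (SORBI_3004G268700), 0.64 (SORBI_3007G156300), 0.22 (SORBI_3002G225400), 0.20 (SORBI_3009G000700) and -0.14 (SORBI_3001G022700). Zeaxanthin epoxidase (SORBI_3006G097500), which acts earlier in synthesis, had 347, 379 and 385 against 323, 249 and 346 CPM, lower by a narrow margin without a call (DESeq2 adjusted p = 0.917). Of the 11 tested genes of the list, zeaxanthin epoxidase and dioxygenase 1 were those whose groups did not overlap.

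Downstream of the hormone, a receptor fell and 5 phosphatases rose by DESeq2. The receptor PYL4 (SORBI_3001G403300, chromosome 1, 68842276 to 68843883) fell by DESeq2 from 29.2, 33.9 and 20.2 to 3.91, 3.304 and 8.84 CPM. The highest mild drought library lay below the lowest control by more than 2-fold (log2 -2.38 ± 0.41, edgeR adjusted p = 0.398, DESeq2 adjusted p = 3.89e-05). PYL10 (SORBI_3001G289100) had 16.8, 19.1 and 19.4 against 12.5, 15.4 and 9.84 CPM, a smaller gap without overlap (log2 -0.55 ± 0.24, edgeR adjusted p = 0.772). All 5 tested receptor genes were below 0, as 47.7% of all genes were, with a median of -0.55, and of -0.18 without control 3 and mild drought 2. Of the 12 SnRK2 kinases, 6 were above and 6 below 0, and the median was -0.01 (0.09 without that pair of libraries). Of them 1 did not overlap, on the higher side (8.33%, against 6.2% of all genes).

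Among the 77 tested type 2C phosphatases, 10 lay wholly above the controls (13%, against 6.2% of all genes) and 6 wholly below (7.79%, against 6.38%). DESeq2 called 5, all higher, beside 0.548% of all genes called higher. Phosphatase 2C 68 (SORBI_3002G172000, chromosome 2, 54480172 to 54484180) rose from 3.50, 6.66 and 7.97 to 21.3, 35.3 and 49.4 CPM (log2 2.55 ± 0.50, DESeq2 adjusted p = 0.000336). Phosphatase 2C 37 (SORBI_3006G018400, chromosome 6, 3076063 to 3082312) rose from 0.662, 1.05 and 3.00 to 6.997, 18.9 and 22.5 CPM (log2 3.35 ± 0.67, DESeq2 adjusted p = 0.000131). Phosphatase 2C 30 (SORBI_3001G424400, chromosome 1, 70449095 to 70456551) rose from 4.0, 5.68 and 9.82 to 27.3, 42.9 and 90.6 CPM (log2 3.04 ± 0.66, DESeq2 adjusted p = 0.000516). In each of these 3 genes control 3 was the highest control and mild drought 1 the lowest of its group, and the gap between them was still more than 2-fold.

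Phosphatase 2C 6 (SORBI_3003G198200) and 2C 49 (SORBI_3009G161800) made up the 5, with mean levels rising from 20.8 ± 3.47 to 45.1 ± 8.59 CPM and from 16.0 ± 4.39 to 60.3 ± 23.2 CPM (SD, n = 3, DESeq2 adjusted p = 0.0247 and 0.0156). Phosphatase 2C 50 (SORBI_3009G213000) had 90.7, 65.3 and 98.4 against 130, 153 and 267 CPM and did not pass (DESeq2 adjusted p = 0.087). In the opposite direction, 2C 40 (SORBI_3006G098100) had 76.6, 57.0 and 68.9 against 42.7, 44.9 and 36.1 CPM and did not pass either (DESeq2 adjusted p = 0.185). The median of the list was -0.04, with 35 of the 77 above 0, and 0.05 without control 3 and mild drought 2. Among transcription factors that carry the hormone's signal, bZIP46 (SORBI_3010G081800) had 9.93, 7.94 and 9.69 CPM in the controls and 12.2, 21.6 and 19.1 CPM in mild drought, without overlap and without a call (log2 0.94 ± 0.25, DESeq2 adjusted p = 0.0659).

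Homeobox-leucine zipper factors, plant-specific regulators of which several respond to water shortage, were more often higher. Of 36 tested, 27 were above 0 and the median was 0.31. Of them 6 lay wholly above the controls (16.7%, against 6.2% of all genes) and 1 wholly below (2.78%, against 6.38%). The mean centred log2 level of the list overlapped between the groups. It was -0.40, -0.17 and -0.04 in the controls and -0.22, 0.42 and 0.40 in mild drought. HOX22 (SORBI_3006G163900, chromosome 6, 52167161 to 52168720) rose by DESeq2 from 19.9, 23.6 and 36.1 to 50.1, 60.9 and 81.5 CPM (log2 1.27 ± 0.30, DESeq2 adjusted p = 0.0179). HOX24 (SORBI_3004G300300, chromosome 4, 63901938 to 63906312) rose from 6.99, 6.56 and 7.31 to 21.8, 21.9 and 93.1 CPM (log2 2.71 ± 0.82, DESeq2 adjusted p = 0.0378). Its size leaned on mild drought 3, and the log2 difference without that library was 1.65. HOX13 (SORBI_3001G476300) had 5.48, 8.65 and 8.52 against 11.5, 32.9 and 15.2 CPM and did not pass (DESeq2 adjusted p = 0.0858).

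Other families of factors held single members that passed in DESeq2 in either direction. The bZIP factor RISBZ3 (SORBI_3007G109900) fell from 13.1, 9.84 and 16.4 to 4.48, 6.54 and 3.88 CPM (log2 -1.40 ± 0.31, DESeq2 adjusted p = 0.00981). The bZIP factor 53 (SORBI_3004G031100) was called higher by DESeq2 (adjusted p = 0.00361), yet it had 0.132, 0.169 and 0.131 CPM in the controls and 0.126, 13.2 and 14.9 CPM in mild drought, so mild drought 1 was at the control level. Of 75 ethylene-responsive and dehydration-responsive factors, 9 lay wholly above and 9 wholly below the controls (12% each). ABR1 (SORBI_3007G188701) rose from 2.62, 0.777 and 2.72 to 7.31, 5.85 and 16.8 CPM (DESeq2 adjusted p = 0.0273). Factor 1A of the same list (SORBI_3004G297100, chromosome 4, 63669372 to 63670307) fell from 12.7, 16.9 and 8.36 to 2.74, 3.86 and 2.68 CPM (log2 -2.03 ± 0.47, DESeq2 adjusted p = 0.0113). The 55 NAC factors and 81 MYB factors had no call in DESeq2, beside 0.942% of all genes. They had 2 and 4 members wholly above (3.64% and 4.94%, against 6.2%) and 5 and 6 wholly below the controls (9.09% and 7.41%, against 6.38%). The MYB median turned from 0.11 to -0.05 without control 3 and mild drought 2.

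Genes for cell surface and immune receptors were mostly lower. Wall-associated and cysteine-rich receptor-like kinases sit in the plasma membrane, and many are induced by pathogens. Of 90 tested, 70 were below 0 and the median log2 difference was -0.61. In 26 (28.9%, against 6.38% of all genes) every mild drought library lay below every control, and in 1 (1.11%, against 6.2%) above. Without control 3 and mild drought 2 these shares were 60% and 6.67%, against 21.4% and 19.9% of all genes, and the median was -0.68. The mean of the members' centred log2 levels was 0.31, 0.65 and 0.21 in the controls and -0.31, -0.18 and -0.68 in mild drought, without overlap. The senescing leaf markers were lower too. All 6 tested were below 0, with a median of -0.37, and their mean centred log2 level was 0.23, 0.84 and 0.13 in the controls and -0.09, -0.48 and -0.63 in mild drought. Over all 20 of these markers, of which 8 had no count, the summed level was 342, 682 and 703 CPM against 334, 193 and 344 CPM, which overlapped by a small margin. Most of it was the protease SAG39 (SORBI_3001G086800), with 252, 571 and 570.3 against 249, 84.4 and 262 CPM. Their part in the receptor result was not tested. Both kinase families were lower. Of 44 wall-associated kinases, 13 were above 0, with 9 wholly below the controls (20.5%) and none above. Of 46 cysteine-rich kinases, 7 were above 0, with 17 wholly below (37.0%) and 1 above (2.17%).

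Within the list DESeq2 called 3 lower and 1 higher, beside 0.394% and 0.548% of all genes. Cysteine-rich receptor-like kinase 10 (SORBI_3002G329100, chromosome 2, 69826207 to 69829934) fell from 13.3, 18.6 and 21.2 to 6.08, 5.08 and 4.28 CPM, at least 2-fold between the nearest libraries (log2 -1.78 ± 0.26, edgeR adjusted p = 0.288, DESeq2 adjusted p = 8.21e-07). Wall-associated kinase 4 (SORBI_3005G222700, chromosome 5, 70938935 to 70942578) fell from 13.8, 8.65 and 10.1 to 0.882, 0.878 and 0 CPM (log2 -4.17 ± 1.02, DESeq2 adjusted p = 0.00142). Cysteine-rich kinase 6 (SORBI_3002G327800, chromosome 2, 69731166 to 69734284) fell from 20.1, 12.8 and 1.57 to 1.07, 0.601 and 1.20 CPM. Control 3 lay close to the mild drought libraries in this gene (log2 -3.59 ± 0.94, DESeq2 adjusted p = 0.00852). The member that rose was cysteine-rich kinase 2 (SORBI_3003G188000), from 2.89, 2.74 and 2.61 to 8.04, 4.94 and 6.24 CPM (DESeq2 adjusted p = 0.0312).

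Other receptors were called in both directions. SERK2 (SORBI_3004G189900, chromosome 4, 54181040 to 54187021), a co-receptor of leucine-rich repeat receptor kinases, fell from 94.0, 114 and 95.0 to 54.2, 50.9 and 46.2 CPM. The spread within each group was small beside this gap (log2 -1.001 ± 0.15, edgeR adjusted p = 0.288, DESeq2 adjusted p = 5.80e-07). The lectin receptor kinase SIT2 (SORBI_3002G025700, chromosome 2, 2367136 to 2374174) fell from 19.8, 18.0 and 19.4 to 11.2, 10.8 and 9.08 CPM (log2 -0.88 ± 0.18, DESeq2 adjusted p = 0.000302). A second gene named SIT2 (SORBI_3002G107900), singled out after its values were seen, went the other way and rose by DESeq2 from 1.36 ± 0.573 to 9.06 ± 1.32 CPM (SD, n = 3, log2 2.73 ± 0.56, DESeq2 adjusted p = 0.000814). Both SIT2 genes were among the 41 called with each library left out. Intracellular NLR receptors, which recognise pathogen effectors, had 224 tested members with a median of -0.20. Of these, 31 lay wholly below the controls (13.8%) and 5 wholly above (2.23%). DESeq2 called 1, the protein RPM1 (SORBI_3005G092600, chromosome 5, 14271998 to 14279592), which fell from 30.3, 37.3 and 15.8 to 9.27, 11.3 and 3.60 CPM (log2 -1.79 ± 0.47, DESeq2 adjusted p = 0.0385). Over all genes 0.394% were called lower, so 1 call among 224 is near that share. The 15 genes named RPM1 had a median of -0.63, with 6 wholly below the controls (40%, against 6.38% of all genes) and none above. Their mean centred log2 level overlapped, at 0.391, 0.558 and -0.051 in the controls and 0.0382, -0.701 and -0.235 in mild drought. Of 120 genes named RGA and 31 named RPP13, 11.7% and 12.9% lay wholly below and 2.5% and 6.45% wholly above the controls.

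WRKY factors, many of which act in defence, had 68 tested members and a median of -0.16. Among them 10 lay wholly below the controls (14.7%) and 2 wholly above (2.94%). DESeq2 called 3, all lower, beside 0.394% of all genes called lower. The mean centred log2 level of the list overlapped between the groups. It was 0.11, 0.39 and 0.06 in the controls and -0.29, 0.19 and -0.47 in mild drought. WRKY24 at SORBI_3009G100500 (chromosome 9, 39826393 to 39831148) fell from 82.0, 109 and 87.9 to 44.7, 50.9 and 46.3 CPM (log2 -0.98 ± 0.18, DESeq2 adjusted p = 0.000932). A second gene named WRKY24 (SORBI_3003G341100) fell from 5.80, 8.25 and 5.67 to 1.29, 2.89 and 1.72 CPM (log2 -1.73 ± 0.44, DESeq2 adjusted p = 0.026). WRKY50 (SORBI_3009G212800) was called lower too (DESeq2 adjusted p = 0.0283), with 36.8, 49.3 and 5.64 against 7.12, 4.78 and 4.84 CPM, where control 3 fell inside the range of mild drought.

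Pi21 (Protein PYRICULARIA ORYZAE RESISTANCE 21, SORBI_3006G060800, chromosome 6, 41262480 to 41264491), a proline-rich protein known in rice to slow defence against blast fungus, fell from 948, 874 and 714 to 238, 345 and 413 CPM (log2 -1.35 ± 0.28, DESeq2 adjusted p = 0.00076). Lichenase-2 (SORBI_3009G119200), a glucanase, was called lower by DESeq2 (adjusted p = 0.0202), with 34.6, 41.9 and 412 against 7.47, 5.64 and 22.6 CPM. Its log2 difference of -3.77 ± 1.21 was -1.68 without control 3. Pathogenesis-related proteins and chitinases as a list had no call by DESeq2 among 83, beside 0.942% of all genes. Of the list, 1 member lay wholly above (1.2%) and 2 wholly below the controls (2.41%). Without control 3 and mild drought 2 these were 13.3% and 36.1%, against 19.9% and 21.4% of all genes, and the median moved from -0.10 to -0.29. Jasmonate-induced oxygenase 2 (SORBI_3010G060300), which inactivates jasmonate in Arabidopsis, fell from 35.8, 28.2 and 31.2 to 15.3, 14.5 and 20.1 CPM (log2 -0.93 ± 0.23, DESeq2 adjusted p = 0.0475). The 52 tested jasmonate genes had a median of -0.26, and of -0.43 without that pair.

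**Figure D3:**
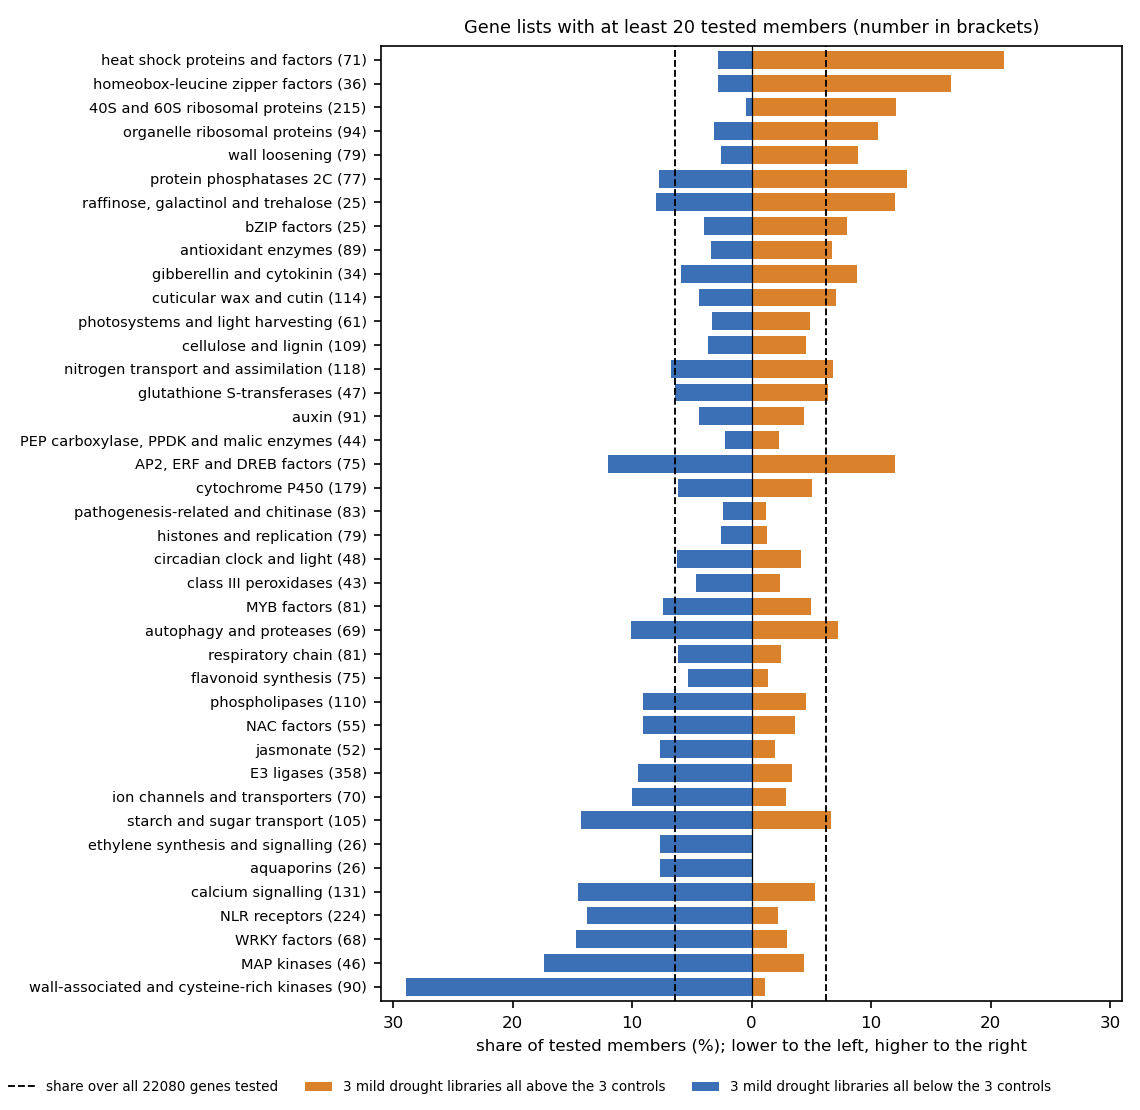
Share of tested members, in percent, whose 3 mild drought libraries lie all above (right) or all below (left) the 3 controls, for each gene list with at least 20 tested members. Dashed lines mark the shares over all genes tested (6.2% and 6.38%). Wall-associated and cysteine-rich kinases reach 28.9% on the lower side, and heat shock proteins 21.1% on the higher side.

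Kinases of intracellular signalling were called in both directions. In calcium signalling, 131 genes were tested, 19 lay wholly below the controls (14.5%) and 7 wholly above (5.34%). CBL-interacting kinases, which are switched on by calcium sensors, had 20 of 32 members above 0 (52.3% of all genes were), with 5 wholly above (15.6%, against 6.2%) and 1 wholly below the controls (3.12%, against 6.38%). Their mean centred log2 level overlapped between the groups, at -0.04, -0.10 and -0.08 in the controls and 0.14, -0.23 and 0.31 in mild drought, where mild drought 2 was the lowest of all 6. Calcium-dependent kinases had 9 of 27 above 0, with 1 wholly above (3.7%) and 7 wholly below (25.9%). Of 47 calmodulins and calmodulin-binding proteins, 11 were above 0, with 9 wholly below (19.1%) and none above. No test of the difference between these families was made.

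CBL-interacting kinase 16 (SORBI_3002G203000, chromosome 2, 59318757 to 59320764) rose by DESeq2 from 45.5, 37.2 and 42.4 to 94.6, 93.8 and 115 CPM. Every mild drought library was at least 2-fold above the highest control (log2 1.28 ± 0.19, edgeR adjusted p = 0.288, DESeq2 adjusted p = 3.54e-06). Kinase 6 of the same family (SORBI_3007G140900, chromosome 7, 56993382 to 56998511) rose from 147, 102 and 184 to 337, 303 and 480 CPM (log2 1.37 ± 0.29, DESeq2 adjusted p = 0.00182). In the cascades of mitogen-activated protein kinases, 8 of 46 genes lay wholly below the controls (17.4%) and 2 wholly above (4.35%). MPK5 (SORBI_3001G410100, chromosome 1, 69359089 to 69363908) fell from 107, 111 and 91.2 to 58.0, 60.2 and 62.7 CPM (log2 -0.77 ± 0.14, DESeq2 adjusted p = 0.000336). The kinase kinase 2 (SORBI_3010G037300) fell from 31.8, 40.6 and 39.2 to 22.9, 19.3 and 14.0 CPM (log2 -0.99 ± 0.21, DESeq2 adjusted p = 0.0141). A kinase kinase kinase 1 (SORBI_3003G257200) rose from 9.56, 7.33 and 6.97 to 16.6, 20.4 and 12.7 CPM (log2 1.06 ± 0.23, DESeq2 adjusted p = 0.00981).

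**Figure D4:**
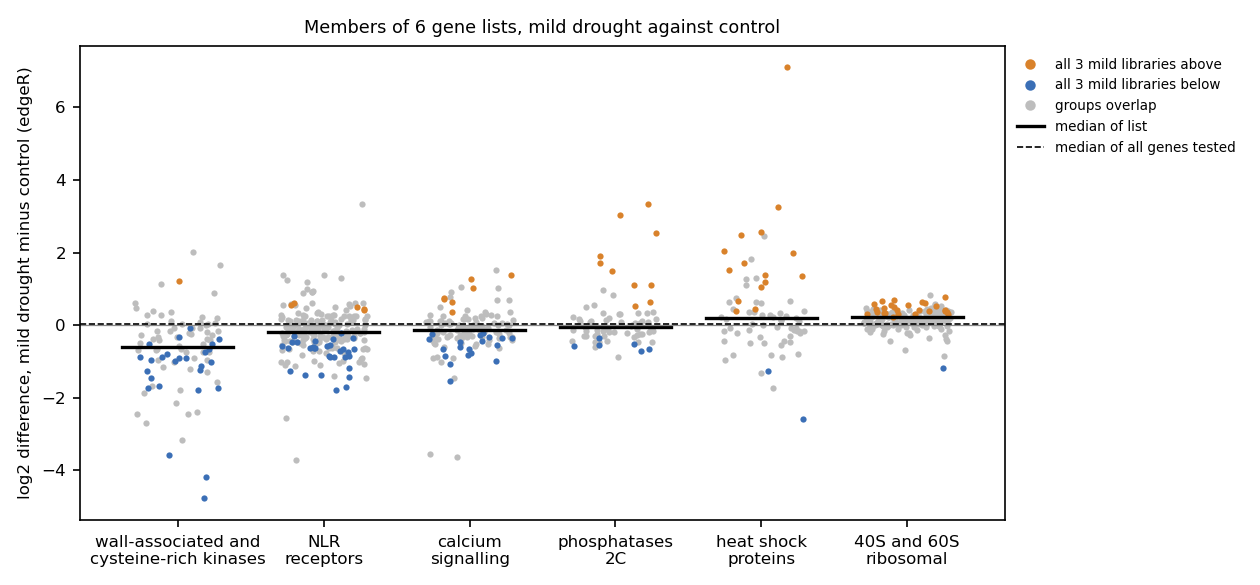
Log2 difference of each tested member of 6 gene lists, mild drought minus control, from edgeR, with horizontal position within a list at random. Orange and blue points are members whose groups do not overlap, black bars the list medians (-0.61 for the receptor kinases at the left, 0.22 for ribosomal proteins at the right) and the dashed line the median over all genes tested (0.02). The point above 6 is a heat shock gene without a count in the controls, whose fitted value depends on the constant added in the fit.

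Sugar and starch genes held calls in both directions. SWEET13 (SORBI_3008G094400, chromosome 8, 44672607 to 44674991), which exports sucrose from leaf cells toward the phloem, fell by DESeq2 from 73.6, 72.0 and 88.9 to 34.7, 46.2 and 35.1 CPM (log2 -1.02 ± 0.18, edgeR adjusted p = 0.486, DESeq2 adjusted p = 0.000516). Beta-amylases release maltose from starch. Beta-amylase 2 (SORBI_3001G508800, chromosome 1, 77671368 to 77674269) rose from 54.5, 60.3 and 39.7 to 108, 86.9 and 152 CPM (log2 1.17 ± 0.28, DESeq2 adjusted p = 0.0309). Beta-amylase 1 (SORBI_3001G226600, chromosome 1, 21690596 to 21694416) had 0.901, 0.473 and 6.03 CPM in the controls and 28.8, 110 and 112 CPM in mild drought, without overlap. Its log2 difference was 5.07 ± 1.01 (edgeR adjusted p = 0.528), and DESeq2 gave it no adjusted p. SWEET16 (SORBI_3001G377600) and SWEET15 (SORBI_3004G157100) had no count in the controls and were called higher by DESeq2 (adjusted p = 0.00198 and 4.76e-06), at mean levels of only 0.953 ± 0.554 and 4.02 ± 6.96 CPM in mild drought (SD, n = 3), and the groups overlapped for SWEET15. These 2 genes were chosen after their values were seen. Of the 105 tested genes of the list, 15 lay wholly below the controls (14.3%, against 6.38% of all genes) and 7 wholly above (6.67%, against 6.2%). The 16 tested SWEET genes had a median of 0.13, which turned to -0.24 without control 3 and mild drought 2.

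Among transporters of nitrogen compounds, a pair of neighbouring genes named NRT1/PTR family 3.1 rose by DESeq2. SORBI_3009G136500 (chromosome 9, 49263612 to 49267981) went from 0.980, 1.62 and 1.33 to 2.90, 16.1 and 13.8 CPM (log2 3.06 ± 0.64, DESeq2 adjusted p = 0.000656). SORBI_3009G136700 (chromosome 9, 49293770 to 49297372) went from 2.36, 1.45 and 0.731 to 11.2, 21.6 and 8.64 CPM (log2 3.18 ± 0.74, DESeq2 adjusted p = 0.00233). If the copies are alike, their reads may not be separate measurements. LHT1 (Lysine histidine transporter 1, SORBI_3007G025800, chromosome 7, 2367174 to 2371549), an amino acid importer, fell from 24.6, 41.0 and 29.7 to 10.4, 12.2 and 11.6 CPM (log2 -1.48 ± 0.26, DESeq2 adjusted p = 0.000376). All 62 tested NRT1/PTR genes had a median of 0.10 (-0.05 without control 3 and mild drought 2). Of them 6 lay wholly above (9.68%, against 6.2% of all genes) and 1 wholly below the controls (1.61%, against 6.38%).

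Further membrane transporters were led by an ABC transporter. ABCC3 (SORBI_3003G049500, chromosome 3, 4519257 to 4524669), of the family that moves conjugates into the vacuole, fell from 30.9, 25.7 and 24.7 to 10.8, 10.8 and 7.92 CPM (log2 -1.46 ± 0.20, edgeR adjusted p = 0.288, DESeq2 adjusted p = 5.46e-08). WAT1-related protein At5g64700 (SORBI_3003G184100), of a family of small-molecule transporters, fell from 19.1, 13.9 and 20.1 to 6.40, 1.73 and 3.88 CPM (DESeq2 adjusted p = 0.0159). The chloride channel CLC-a (SORBI_3010G214600), which loads nitrate into the vacuole in Arabidopsis, rose by DESeq2 (adjusted p = 0.0236) from 1.25, 2.94 and 2.74 to 3.94, 11.5 and 71.5 CPM. Mild drought 3 carried most of this rise, and the log2 difference of 3.65 ± 1.17 was 1.75 without it. Potassium transporter 1 (SORBI_3006G061300, chromosome 6, 41456513 to 41463311) had 70.9, 84.5 and 7.18 against 10.7, 4.76 and 9.88 CPM. Control 3 lay among the mild drought libraries, and the gene was the only one that edgeR called without control 3 and mild drought 2 (log2 -2.92, adjusted p = 0.0427).

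The abundant genes of C4 photosynthesis did not part the groups. Phosphoenolpyruvate carboxylase 3 (SORBI_3010G160700) had 18032 ± 608 CPM in the control and 22669 ± 9236 CPM in mild drought (SD, n = 3), and pyruvate phosphate dikinase 1 (SORBI_3009G132900) had 16408 ± 5408 and 12540.0 ± 7904 CPM. A chloroplast malic enzyme (SORBI_3003G036200) had 2984, 3782 and 2373 against 2142, 1499 and 3764 CPM. Per length these 3 genes stood at 2568, 4269 and 1130.3 FPKM in the control, and their log2 differences were 0.33 ± 0.59, -0.39 ± 0.66 and -0.30 ± 0.40. A malic enzyme gene of low level (SORBI_3003G292400, chromosome 3, 62488685 to 62493225) rose by DESeq2 (adjusted p = 0.000171), from 0, 0.203 and 0 to 1.89, 5.80 and 3.56 CPM, or 6 counts in the controls and 400 in mild drought. Phosphoenolpyruvate carboxykinase (SORBI_3001G432800), which releases carbon dioxide from oxaloacetate, had 203, 193 and 269 against 104, 104 and 116 CPM and just missed the threshold (log2 -1.04 ± 0.28, DESeq2 adjusted p = 0.0582). Of 44 tested genes of this list, 1 lay wholly above and 1 wholly below the controls (2.27% each).

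The 61 genes of photosystems and light harvesting and the 19 of the Calvin cycle and photorespiration had no call in DESeq2. At the share of all genes, 0.942%, lists of this size would also hold few calls or none. The medians were -0.12 and -0.04. Without control 3 and mild drought 2 the photosystem median turned to 0.16, with 13 members wholly above (21.3%, against 19.9% of all genes) and 2 wholly below (3.28%, against 21.4%). Phosphoribulokinase (SORBI_3004G272100), which regenerates the acceptor of carbon dioxide, had 921, 860.4 and 1109.8 against 523, 482 and 638 CPM, without overlap (log2 -0.82 ± 0.34, DESeq2 adjusted p = 0.382). The plastid terminal oxidase, named ubiquinol oxidase 4 (SORBI_3006G258800), rose by DESeq2 from 12.2, 9.67 and 8.12 to 20.3, 19.0 and 28.2 CPM (log2 1.17 ± 0.26, DESeq2 adjusted p = 0.0151).

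Heat shock proteins are chaperones that hold or refold damaged proteins. Listed together with heat stress factors, they had the largest share on the higher side among lists with at least 20 tested members. Of 71 tested, 15 lay wholly above the controls (21.1%, against 6.2%) and 2 wholly below (2.82%). DESeq2 called 6, all higher, beside 0.548% of all genes. A 70 kDa heat shock protein (SORBI_3003G350700, chromosome 3, 67021779 to 67024939) rose from 43.4, 41.7 and 20.3 to 107, 124 and 117 CPM (log2 1.72 ± 0.31, DESeq2 adjusted p = 0.000419). Heat stress factor C-2a (SORBI_3004G101400) rose from 1.88, 1.89 and 1.20 to 6.05, 5.36 and 9.08 CPM (log2 2.04 ± 0.48, DESeq2 adjusted p = 0.0156), and the 70 kDa protein 8 (SORBI_3001G454000) from 8.29, 7.27 and 4.28 to 16.6, 16.4 and 17.4 CPM (DESeq2 adjusted p = 0.047). In all 3 genes control 3 was the lowest control. The list's median was 0.20, and its mean centred log2 level overlapped between the groups, with -0.21, 0.11 and -0.37 in the controls and -0.13, 0.34 and 0.25 in mild drought. Its parts differed, with medians of 0.26 for 15 proteins of 70 kDa, -0.08 for 23 heat stress factors and -0.09 for 19 small heat shock proteins. Without control 3 and mild drought 2 the list had 36.6% wholly above and 19.7% wholly below, against 19.9% and 21.4% of all genes.

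Cytosolic ribosomal proteins differed little each but mostly in 1 direction. Of 215 tested, 181 were above 0, the median was 0.22, 26 lay wholly above the controls (12.1%) and 1 wholly below (0.465%). None was called by DESeq2, beside 0.942% of all genes (11 and 0 at an unadjusted edgeR p under 0.05, higher and lower). Control 3 held the lowest mean centred log2 level of the list, -0.33, beside 0.13 and -0.07 in the other controls and 0.17, 0.13 and -0.04 in mild drought. Without control 3 and mild drought 2 the median was 0.04. Proteins of organelle ribosomes had 94 tested members and a median of 0.15, and of 0.21 without those 2 libraries. Of them 10 lay wholly above (10.6%, against 6.2% of all genes) and 3 wholly below the controls (3.19%, against 6.38%).

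Several leading genes fall in no list. Spastin (SORBI_3003G011000, chromosome 3, 965250 to 973401), named after an ATPase that severs microtubules in animals, rose by DESeq2 from 1.40, 2.16 and 1.57 to 10.1, 17.5 and 12.1 CPM (log2 2.95 ± 0.41, edgeR adjusted p = 0.288, DESeq2 adjusted p = 2.73e-08). The splicing factor SR30 (SORBI_3003G149800, chromosome 3, 15799863 to 15805755) rose from 46.1, 47.1 and 45.7 to 89.8, 79.6 and 81.6 CPM. The controls differed by less than 2 CPM, and the log2 difference of 0.85 ± 0.14 varied only from 0.81 to 0.89 when 1 library was left out (DESeq2 adjusted p = 4.76e-06). Release factor eRF1-2 (SORBI_3009G118600, chromosome 9, 46372272 to 46375938), which ends translation at stop codons, rose from 4.21, 4.12 and 2.61 to 11.3, 9.52 and 17.9 CPM (log2 1.82 ± 0.35, DESeq2 adjusted p = 0.000935). A CCCH zinc finger protein (SORBI_3009G072100, chromosome 9, 8704905 to 8707657) rose from 63.9, 53.8 and 52.8 to 129, 464 and 310 CPM (log2 2.41 ± 0.43, DESeq2 adjusted p = 3.27e-05).

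Redox and oxidative enzymes were also among the leading genes. Nucleoredoxin 2 (SORBI_3003G323500, chromosome 3, 65000639 to 65004307), a thioredoxin-like protein, rose from 51.6, 46.5 and 79.8 to 144, 281 and 326 CPM (log2 2.08 ± 0.34, DESeq2 adjusted p = 5.80e-06). Indole-2-monooxygenase (SORBI_3007G003400, chromosome 7, 315339 to 321801), which in maize acts in the synthesis of benzoxazinoid defence compounds, rose from 6.07, 4.33 and 13.6 to 39.0, 90.7 and 89.0 CPM (log2 3.18 ± 0.51, edgeR adjusted p = 0.349, DESeq2 adjusted p = 4.60e-07). Cytochrome P450 71A1 (SORBI_3009G196800, chromosome 9, 54738568 to 54741184) rose from 81.0, 68.8 and 125 to 215, 264 and 366 CPM (log2 1.62 ± 0.30, DESeq2 adjusted p = 0.00021), and the reductase that feeds electrons to such enzymes, cytochrome P450 reductase 3 (SORBI_3002G295100), from 70.8, 64.8 and 79.3 to 128, 119 and 114 CPM (DESeq2 adjusted p = 0.0142). As a list, the 179 tested cytochromes P450 and monooxygenases had 9 members wholly above (5.03%) and 11 wholly below the controls (6.15%), close to the shares of all genes. Thioredoxin H4-1 (SORBI_3003G054200) fell from 48.3, 45.9 and 34.5 to 24.1, 25.5 and 27.8 CPM (DESeq2 adjusted p = 0.0389), and no other antioxidant enzyme of 89 was called.

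Ribonuclease LE (SORBI_3002G278700), an extracellular enzyme that frees phosphate from RNA, rose by DESeq2 (adjusted p = 0.00496) from 0.238, 1.69 and 0.496 to 7.75, 48.2 and 4.88 CPM, with most of the size in mild drought 2. Its log2 difference of 4.67 ± 1.32 was 2.98 without that library. Cysteine proteinase 1 (SORBI_3004G142800) fell from 1659, 1416 and 1761 to 1047.5, 1011 and 973 CPM (log2 -0.67 ± 0.22, DESeq2 adjusted p = 0.000472). Serine racemase (SORBI_3006G173600) and a Copia protein (SORBI_3007G080780), the product of a retrotransposon, fell from 44.0 ± 2.64 to 26.0 ± 4.07 CPM and from 22.1 ± 2.36 to 10.3 ± 2.31 CPM (SD, n = 3, DESeq2 adjusted p = 0.00859 and 0.00693). A cytokinin-activating phosphoribohydrolase (SORBI_3002G286400) fell from 119 ± 19.7 to 34.1 ± 19.0 CPM (SD, n = 3, log2 -1.80 ± 0.46, DESeq2 adjusted p = 0.0247). The large subunit of ribonucleotide reductase (SORBI_3004G336100), an enzyme of dividing cells, fell from 17.4, 15.6 and 13.4 to 7.19, 3.56 and 4.68 CPM (DESeq2 adjusted p = 0.047), while the 20 markers of dividing cells, to which it belongs, summed to 89.1, 89.3 and 85.6 CPM in the controls and to 65.9, 89.3 and 65.7 CPM in mild drought.

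Genes without a named function were also among those with the smallest p. SORBI_3002G141800 (chromosome 2, 23093098 to 23093995) rose by DESeq2 from 0.238, 1.05 and 0.340 to 13.5, 2.86 and 13.6 CPM (log2 4.22 ± 0.81, DESeq2 adjusted p = 2.18e-05). SORBI_3010G165200 rose from 22.5 ± 3.85 to 57.0 ± 15.2 CPM (SD, n = 3, DESeq2 adjusted p = 0.0028). SORBI_3009G252100 (chromosome 9, 58682087 to 58684835) fell from 50.015, 52.0 and 23.4 to 6.40, 2.19 and 3.04 CPM (log2 -3.43 ± 0.59, DESeq2 adjusted p = 3.54e-06). SORBI_3006G249050 fell from 8.18 ± 3.47 to 2.88 ± 0.272 CPM (DESeq2 adjusted p = 0.0177), and lncRNA transcripts held 76.3% of its count.

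Several other lists had shares near those of all genes over the 6 libraries, though some moved away without control 3 and mild drought 2. Aquaporins, the water channels of membranes, had 26 tested members, none wholly above and 2 wholly below the controls (7.69%). Without control 3 and mild drought 2 they had 6 above (23.1%) and 5 below (19.2%), against 19.9% and 21.4% of all genes. Their median turned from -0.09 to 0.02. Auxin genes (91 tested, 4 and 4, or 4.4% each), nitrogen transport and assimilation (118, 8 and 8, or 6.78% each) and cuticular wax and cutin (114, 8 and 5, or 7.02% and 4.39%) had similar numbers wholly above and wholly below. Glutathione S-transferases, which detoxify by conjugation, had 3 and 3 of 47 (6.38% each) and a median of -0.03. Without control 3 and mild drought 2 they had 8 above (17.0%) and 18 below (38.3%), against 19.9% and 21.4% of all genes, and a median of -0.31. The auxin list held 1 call by DESeq2, IAA31 (SORBI_3002G055900), which rose from 21.03, 20.8 and 30.6 to 42.2, 60.6 and 51.6 CPM (adjusted p = 0.0318). E3 ubiquitin ligases, with 358 tested, had 34 members wholly below (9.5%) and 12 wholly above (3.35%), at a median of -0.01. The 3 of them that fell by DESeq2 all carry a U-box, and the one with the smallest adjusted p was protein 70 (SORBI_3001G306000), with 16.9, 20.2 and 23.3 against 11.4, 11.8 and 8.56 CPM (DESeq2 adjusted p = 0.02). Cell wall loosening, class III peroxidases and MYB factors varied mostly with the same pair of libraries as the xylem markers. The mean centred log2 level of the wall loosening list was -0.77, -0.02 and 0.80 in the controls and -0.77, 1.05 and -0.29 in mild drought, and that of the peroxidases was -0.75, 0.09 and 0.87 against -1.11, 1.29 and -0.39.

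No lncRNA transcript passed edgeR either. Of 4903 tested, 0 were called (0.0%), the lowest adjusted p was 0.0891, and 157 (3.2%) had an unadjusted p under 0.05. DESeq2 called 11 (0.224%), 8 higher (0.163%) and 3 lower (0.0612%). The mild drought libraries lay all above the controls in 330 transcripts (6.73%) and all below in 221 (4.51%), and 56.4% of the transcripts were above 0. The name classes LINC, AS, OT and IT are not explained by the labels or headers, and the last 3 carry the name of a gene. Class IT had 373 tested transcripts, of which 36 (9.65%) lay wholly above and 3 (0.804%) wholly below the controls, at a median log2 difference of 0.27, and 15 (4.02%) had an unadjusted edgeR p under 0.05. The median over their host genes was 0.11. Class AS had 80 of 1105 (7.24%) wholly above and 28 (2.53%) wholly below, at medians of 0.22 for the transcripts and 0.04 for their hosts. LINC, with 161 (6.41%) above and 129 (5.14%) below of 2511, and OT, with 53 (5.84%) and 61 (6.72%) of 908, were nearer to balance, with medians of 0.10 and 0.02. At an unadjusted edgeR p under 0.05 there were 69 LINC (2.75%), 30 AS (2.71%) and 43 OT transcripts (4.74%).

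The summed level of class IT was 2411, 3473 and 2252 CPM in the controls and 4822, 1833 and 3720 CPM in mild drought, with mild drought 2 the lowest of all 6. The sums of class AS, of 3672 to 5937 CPM and 3865 to 5442 CPM, overlapped too. A single transcript of class LINC on chromosome 10 (54687687 to 54688042), which belongs to neither of these classes, had 26894, 11717 and 44348 CPM in the controls and 23512, 6350 and 13696 CPM in mild drought.

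Several OT transcripts were present in 1 group and near 0 in the other. Such all-or-none levels also occurred between libraries of 1 group. SORBI_3003G256600-OT3 had 24.2 CPM in mild drought 2 and 0 in the other compared libraries. SORBI_3005G022300-OT3 had 0.132, 14.0 and 0.104 CPM in the controls. The lowest p belonged to SORBI_3K044411-OT4 (scaffold super_2942, 692 to 2564), with 0, 0 and 0.0522 CPM in the controls and 18.2, 11.9 and 23.5 CPM in mild drought, or 2 counts against 1681 (edgeR adjusted p = 0.0891, DESeq2 adjusted p = 1.67e-11). Its host gene had 11.3, 45.8 and 213 CPM in the controls and 76.7, 31.7 and 74.5 CPM in mild drought, so the gene as a whole overlapped between the groups. SORBI_3003G256600-OT1 (chromosome 3, 59458035 to 59468236) showed the opposite, with 21.2, 19.6 and 23.5 CPM in the controls and 0, 0.0231 and 0 CPM in mild drought, or 2279 counts against 1. Its host gene had 27.7, 24.0 and 29.3 against 43.5, 32.1 and 23.6 CPM and overlapped as well. The transcript's edgeR adjusted p was 1.00 in the fit of 9 libraries and 0.00481 in that of the 6 compared libraries. SORBI_3005G022300-OT4 (chromosome 5, 2039676 to 2044283) had 4.98, 7.54 and 10.4 CPM in the controls and no count in mild drought. Against a floor of 3 counts over the group it was at least 255-fold lower (DESeq2 adjusted p = 1.45e-16), while its host gene overlapped at 33.9, 49.9 and 31.1 against 37.4, 29.5 and 25.2 CPM.

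The gene SORBI_3009G183000 on chromosome 9, without a named function, held 4 OT transcripts that differed in direction. OT3 (53637977 to 53654678) had 0.106, 0.135 and 0.0784 CPM in the controls and 51.0, 41.7 and 41.5 CPM in mild drought. OT4, over the same interval, had 123, 172 and 92.8 against 29.1, 4.78 and 23.3 CPM. OT2, named after its values were seen, had 0.132, 0.0338 and 0.0522 against 300.5, 296.6 and 15.6 CPM, and OT1 had 193, 189 and 131 against 268, 349 and 664 CPM. The whole gene had 526, 609 and 371 CPM in the controls and 659, 705 and 1395 CPM in mild drought, without overlap but far closer than its transcripts. The edgeR adjusted p was 1.00 for OT3 and OT4 and 0.775 for the whole gene. OT3 depended on the fit, with an adjusted p of 0.001 from edgeR on the 6 compared libraries alone, 0.00861 from edgeR without severe drought 1 and 0.0394 from limma voom. In severe drought OT3 had 48.6, 0 and 0.0986 CPM. No source used here says how reads were shared out among overlapping transcripts of a locus, and its part in these differences was not tested.

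**Figure D5:**
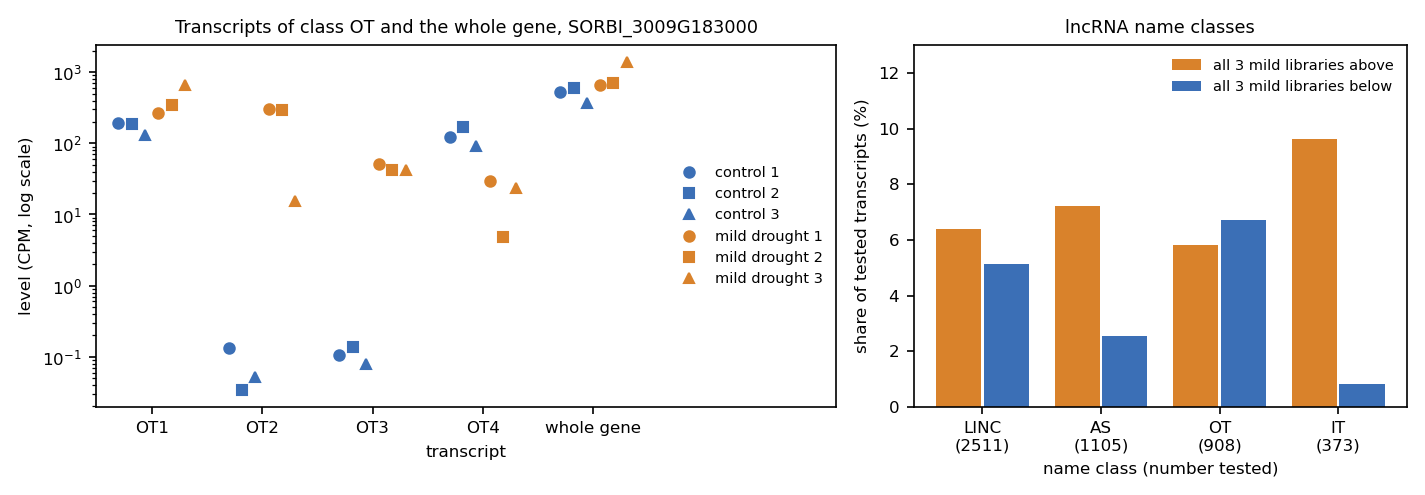
Level of each library in CPM, on a log axis, for the 4 OT transcripts of SORBI_3009G183000 and the whole gene (left), and the share of tested transcripts in percent whose 3 mild drought libraries lie all above or all below the controls, by name class (right). OT2 and OT3 lie below 0.2 CPM in each control and above 15 CPM in each mild drought library, while the whole gene stays between 371 and 1395 CPM. Class IT has 9.65% above and 0.804% below.

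Further transcripts differed along with or apart from their hosts. SORBI_3008G030801-OT1 (chromosome 8, 2751984 to 2760056), named after a non-specific lipid-transfer protein 2, had 24.4, 47.1 and 48.8 CPM in the controls and 63.1, 227 and 156 CPM in mild drought (log2 1.89 ± 0.55, edgeR adjusted p = 1.00). It made up 99.7% of the count of its host gene, so the gene's value is that of the transcript. SORBI_3003G242200-IT1 (chromosome 3, 58154882 to 58156490), in the gene of a phosphatase 2C 8, had 0.291, 0 and 0.0522 against 1.26, 1.22 and 3.32 CPM (log2 4.001 ± 1.19), and its host had 1.43, 2.81 and 1.10 against 3.59, 4.34 and 7.16 CPM. LncRNA transcripts held 69.99% of that host's count, so the values are not separate measurements. SORBI_3008G069700-AS3 (chromosome 8, 8436514 to 8437963), at a gene of a clathrin assembly protein, had 0, 0.0676 and 0.0261 CPM in the controls and 3.21, 0.0693 and 3.28 CPM in mild drought, where mild drought 2 hardly exceeded the controls (DESeq2 adjusted p = 0.00979). No source used here says whether reads were counted by strand, so transcripts of class AS and their hosts may share reads.

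Of the DESeq2 calls among lncRNAs, 4 rested on groups that overlapped. In LINC3471 (chromosome 4, 36710965 to 36714697) and SORBI_3004G144700-OT1 the counts came from mild drought 3 alone, at 6.96 and 7.56 CPM. SORBI_3004G096801-OT2 had 10.5, 0 and 4.60 CPM in mild drought against 0 in the controls. SORBI_3010G166950-AS2 had 12.3, 0 and 20.3 CPM in the controls against 0 in mild drought. LINC4037 (chromosome 5, 3601358 to 3601999) had no count in the controls and 0.347, 0.254 and 0.440 CPM in mild drought, at least 11.6-fold higher against a floor of 3 counts over the group (DESeq2 adjusted p = 0.01). SORBI_3003G023732-OT1 had 0 in the controls and 1.01, 5.94 and 0.680 CPM in mild drought (at least 108-fold higher, DESeq2 adjusted p = 0.0242), and SORBI_3010G049000-OT3 had 1.38, 1.25 and 1.46 CPM in the controls and 0 in mild drought (at least 45.8-fold lower, DESeq2 adjusted p = 0.0208). LINC5771 (chromosome 7, 21518461 to 21518868) rose by DESeq2 from 0, 0.0676 and 0.0784 to 1.13, 0.647 and 0.680 CPM (adjusted p = 0.0106).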

How the data were processed

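Per the file headers, the authors deposited read counts per gene and per lncRNA transcript, with 1 column per sample, and FPKM values, which are scaled to length and depth, per gene and transcript. The submitters' processing notes name HISAT2 2.0.4, STAR and StringTie 1.3.3b without their roles, and no build is named. Gene counts include the reads of lncRNA transcripts of the same gene. No sequence is printed, and the supplied gene table was not used because its identifiers could not be matched.

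EdgeR 4.0.16 (R 4.3.3) served for the quasi-likelihood test of the deposited counts, fitted to the 9 libraries together with no covariate, filterByExpr with default settings, TMM scaling (factors 0.807 to 1.12) and Benjamini-Hochberg adjustment over everything tested. LncRNA transcripts took the effective library sizes of the gene table. The contrast was mild drought minus control, its SE the log2 difference over the square root of F, and a result was called at an adjusted p under 0.05. Alternatives were DESeq2 1.42.0, limma 3.58.1 (voom with quality weights, and deposited FPKM values on the log2 scale with 1 or 0.1 added), a surrogate variable from sva 3.50.0, other scalings and filters, and each library left out. DESeq2 gave no adjusted p for 185 genes, which stay uncalled. Counts of 1213470 to 2902522 per library fell on lncRNA transcripts. Precision was set by the spread between libraries, whose coefficient of biological variation was 0.503 over genes and 0.863 over lncRNA transcripts.

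The 47 gene lists and 9 marker lists were matched to the protein names in the deposited descriptions, which 15705 tested genes had. Named were, in each direction, the 12 genes with the smallest p and the 6 largest DESeq2 calls among named genes of at least 5 CPM with groups apart, up to 3 members of each list, every tested member of some lists, 2 unnamed genes and 6 lncRNA transcripts. The scripts were tested on simulated data. Members, lists, their subdivisions and rules were chosen with earlier results of these data known.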

Additional observations from a re-analysis of the deposited data

How the results depend on the processing

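EdgeR called 0 genes under the main settings and under other scalings, filters, robust moderation, 1 surrogate variable, subtraction of lncRNA counts and the 6 libraries alone. Limma voom called 1 gene and limma on FPKM called 2 with either added constant (P5CS2 and SORBI_3001G109000), DESeq2 called 208, leaving out 1 library gave 0 to 1 and leaving out control 3 and mild drought 2 gave 1. The genes at an unadjusted p under 0.05 (1414) numbered 2233 with the surrogate variable, 2410 with voom, 1789 without control 2 and mild drought 2, and 857 to 1742 with 1 library left out, the lowest without control 1. DESeq2 calls ranged from 77 to 347 with 1 library left out and were 254 without control 2 and mild drought 2. They were 315 without control 3 and mild drought 2, a pair chosen after seeing the data. Without that pair the groups were apart in 4402 genes on the higher and 4719 on the lower side, since 2 libraries a group part by chance more often than 3. For lncRNA transcripts edgeR called 20 without the filter, 3 with the 6 libraries alone, 1 by voom and 0 to 5 with 1 library left out, 5 without severe drought 1, with SORBI_3009G183000-OT3 called in each of the first 3, and DESeq2 called 11. The lncRNA transcripts at an unadjusted p under 0.05 numbered 157, and 237 by DESeq2, 319 without the filter, 359 by voom and 114 to 233 with 1 library left out. With the replicate number as a block, edgeR called 0 genes and 0 transcripts, with 1164 and 123 at an unadjusted p under 0.05. Same-numbered libraries deviated from their group means with correlations of 0.371, -0.297 and -0.374. These values cannot decide whether the numbers pair the samples. Deviations within groups of 3 constrain each other, and control 3 and mild drought 2 deviated alike (0.551). None of the 36 leading genes and 12 leading transcripts changed sign in 828 and 227 refits. They were picked for groups that do not overlap, so a change of sign was hardly possible. Medians of 27 of the 47 lists changed sign in at least 1 refit. No scaling moved the median of all genes by more than 0.1. Levels below 1 CPM rest on few counts, such as 33 over the mild drought libraries for LINC4037.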
